A study of Homo sapiens with 18 samples.

Results

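A set of 10 genes around the lysosomal control of the MiT/TFE transcription factors was followed through 18 polyA RNA libraries. All came from U2OS, a line grown from a human osteosarcoma. The genes are the factors TFEB, TFE3 and MITF, the Rag GTPases RRAGC and RRAGD, folliculin (FLCN) and its partners FNIP1 and FNIP2, the autophagy kinase ULK1 and the autophagy receptor SQSTM1. The genes were listed by name, with earlier results of these data known, and they are 10 of the 35579 genes with a transcript in the deposited tables. All 10 passed the filter on low counts, which left 16786 genes for testing. Every group was U2OS with an integrated construct and held 3 libraries. The control construct was mCherry alone. Of the fusions, mCherry-EWS-FLI1, the labelled mutant mCherry-EWS-FLI1mut and the variant mCherry-EWS(YS37)-FLI1 were each studied untreated. The other 2 groups were mCherry-EWS-FLI1 cells given 7.5 µM LY2835219 for 6 h or for 24 h. Ewing sarcoma is driven by the fused transcription factor EWS-FLI1. LY2835219, also called abemaciclib, inhibits CDK4 and CDK6, kinases of the cell cycle. The labels do not give the nature of the mut change, the use of a vehicle, the promoter of the constructs and the clonal or pooled origin of the lines. A protocol field gives treatment times other than those of the titles, which were used here.

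MITF, TFE3 and TFEB are related basic helix-loop-helix factors that bind E-box sequences and switch on genes of lysosomes and autophagy. In fed cells, Rag GTPases on the lysosome recruit the growth kinase complex mTORC1, and folliculin with FNIP1 or FNIP2 promotes the form of RagC and RagD that presents these factors to mTORC1. Phosphorylation by mTORC1 then keeps the factors in the cytoplasm. RRAGC, RRAGD, FLCN and FNIP genes have themselves been reported as targets of the factors. ULK1 starts autophagosome formation, and SQSTM1 (p62) carries ubiquitinated cargo into autophagosomes. The data are RNA levels and do not measure phosphorylation, location or activity of any of these proteins.

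The core E-box CACGTG was searched on both strands in RefSeq promoter windows of GRCh38.p14, each from 250 bases before to 50 bases after a start site. The table held 16 windows for 9 of the 10 genes, all but RRAGD. A single window each of RRAGC and FNIP1 held CACGTG, against 7.26% of all 35116 windows. The first base of the match lay 112 bases before the RRAGC start, and 175 and 94 bases before the FNIP1 start. All 3 matches extend to TCACGTG, which 3.71% of windows hold and which overlaps CACGTG. The longer TCACGTGA (0.98% of windows) was in none of the 16, and TCATGTG (2.92%) was in 1 FNIP2 window. The 250 bases before the start of RRAGC (chr1:38859773-38860022, minus strand), FNIP1 (chr5:131797018-131797267, minus strand) and FLCN (chr17:17237169-17237418, minus strand) are shown 5′ to 3′ as examples with and without CACGTG among genes that had similar profiles over the libraries. SQSTM1 had such a profile too, and its 3 windows, not printed, hold no CACGTG. Start sites here are those of RefSeq. The RRAGC gene model used for counts starts at position 38859823, inside the printed stretch. Those of FNIP1 and FLCN also start inside theirs. Capitals mark CACGTG, and the FLCN stretch has none.
RRAGC: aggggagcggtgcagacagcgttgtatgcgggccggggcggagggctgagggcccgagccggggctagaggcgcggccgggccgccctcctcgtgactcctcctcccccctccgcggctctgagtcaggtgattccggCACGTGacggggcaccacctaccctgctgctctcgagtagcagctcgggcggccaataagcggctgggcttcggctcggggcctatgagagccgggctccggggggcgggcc
FNIP1: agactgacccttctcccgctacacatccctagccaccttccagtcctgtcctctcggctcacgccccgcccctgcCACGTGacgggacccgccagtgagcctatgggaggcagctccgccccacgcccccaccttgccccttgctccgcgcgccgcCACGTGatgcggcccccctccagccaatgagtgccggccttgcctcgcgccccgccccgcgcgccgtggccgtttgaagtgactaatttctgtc
FLCN: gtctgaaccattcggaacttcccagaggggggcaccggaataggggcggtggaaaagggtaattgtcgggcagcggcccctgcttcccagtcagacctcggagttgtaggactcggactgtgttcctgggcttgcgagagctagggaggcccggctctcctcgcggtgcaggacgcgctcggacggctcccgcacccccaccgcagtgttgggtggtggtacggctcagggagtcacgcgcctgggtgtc
A match of letters is a description of the sequence and not a measured binding site.

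Libraries held 16261034 to 20270637 estimated counts. FLI1, the check of the constructs, was at 0.0534 to 1.16 CPM (library-scaled counts after TMM normalization) in mCherry libraries and at 225 to 1069 CPM in all others, with 406 ± 21.8 CPM at 6 h of LY2835219 against 247 ± 16.3 CPM untreated. In TPM, a per-length scale, the difference was smaller, at 175 ± 8.18 against 139 ± 12.7. Mitochondrial genes took 5.87% to 6.59% of counts under LY2835219 and 4.25% to 5.10% in untreated libraries. Of 9 osteoblast markers, SPARC and COL1A1 were abundant, and SP7, IBSP, BGLAP and COL1A2 averaged under 1 TPM in every group. In these bulk samples, fewer cells of a type and less RNA per cell cannot be told apart. After a level, ± gives the SD (n = 3); after a log2 fold change it gives the standard error. A gene is called, and said to rise or fall, at an adjusted p under 0.05 in edgeR's quasi-likelihood test with Benjamini-Hochberg adjustment over all genes. Replicates are labelled biological, but no independently made lines are named, so p-values cover only the spread between these libraries.

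After 6 h of LY2835219, all 10 genes were called, 8 higher and 2 lower, where 64.9% of all genes tested were called (31.6% higher and 33.3% lower). A call alone is therefore close to the background at this time, and the sizes of the changes carry more. The 8 include TFEB and FNIP2, whose sign depended on the scale. Sizes also depended on the scale. In TPM, the 6 h rises of RRAGC, RRAGD, FNIP1, SQSTM1 and TFE3 were smaller than on counts, and that of FLCN was similar. TFE3 went from 160.4 to 268.7 CPM but from 75.1 to 94.7 TPM. RRAGC, FLCN, FNIP1 and SQSTM1 rose by more than 1 on the log2 scale, as did 8.91% of genes, and MITF and ULK1 fell by more than 1, as did 14.3%. For all 10 genes the treated and untreated libraries did not overlap, as for 68.3% of genes. The median log2 fold change of the 10 genes was 0.84, beside -0.02 over all genes tested. After 24 h, 7 of the 10 were called, 5 higher and 2 lower, where 48.0% of genes were called (23.3% higher and 24.6% lower). Called rises over 1 numbered 5 (RRAGC, RRAGD, FLCN, FNIP1 and SQSTM1), against 4.97% of genes, and MITF alone was called below -1, against 5.83%. Libraries did not overlap for 8 of the 10, against 54.7% of genes. The medians were then 0.51 for the 10 genes and 0.03 for all genes. Both treated groups were compared with the same 3 untreated libraries.

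**Figure D1:**
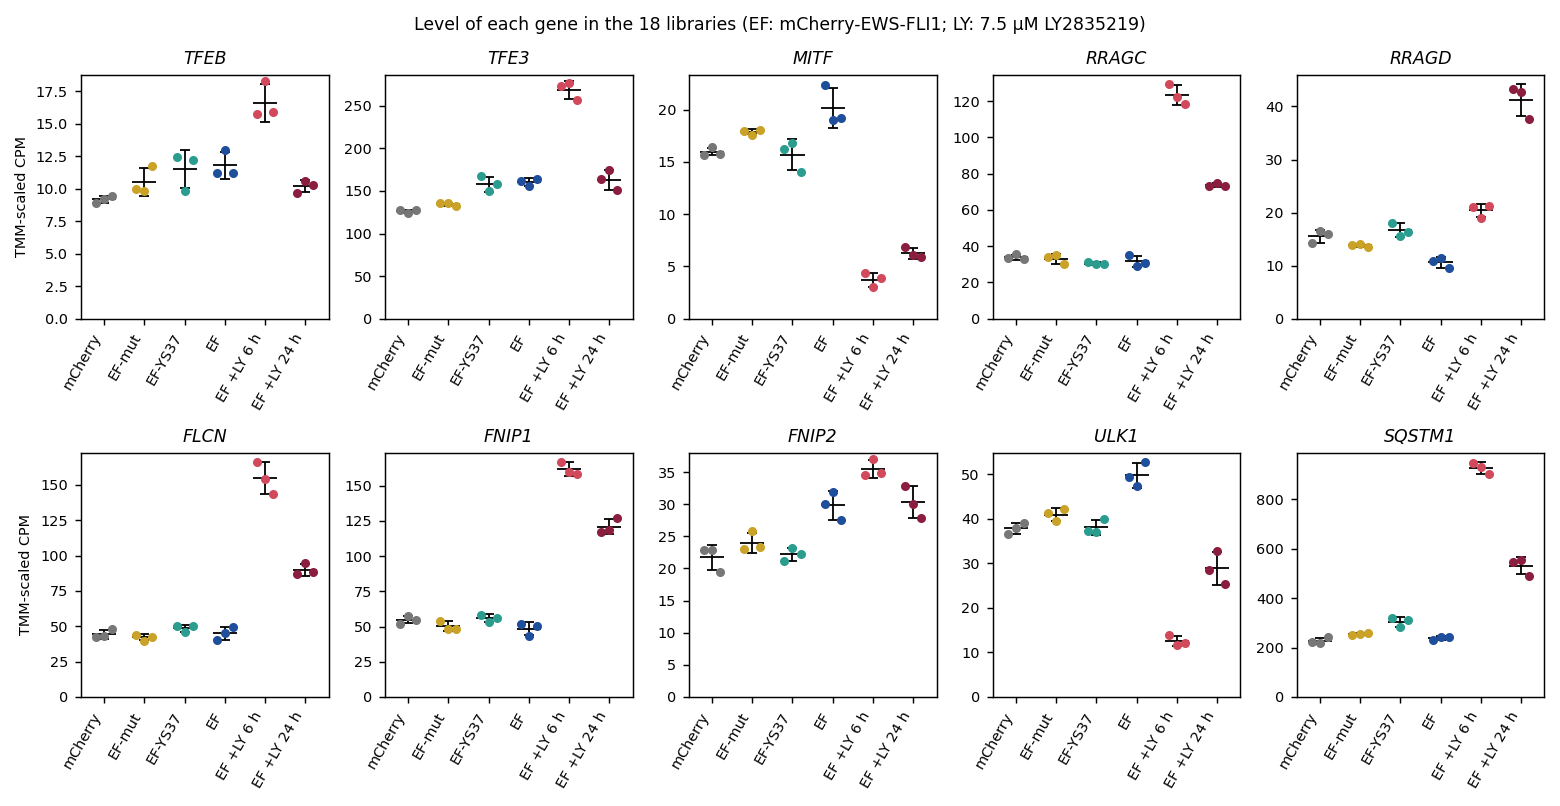
TMM-scaled CPM of each gene in the 18 libraries (points), with the mean (line) and SD (bar) of each group of 3; vertical axes start at 0 and differ between genes, and EF is mCherry-EWS-FLI1. RRAGC, FLCN, FNIP1 and SQSTM1 are highest at 6 h, RRAGD is highest at 24 h, and MITF and ULK1 are lowest at 6 h.

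Among the transcription factors, the RNA of MITF fell while that of TFE3 rose at 6 h only. MITF (ENSG00000187098, chr3:69739435-69968337, plus strand) was at 22.4, 19.0 and 19.2 CPM in the untreated EWS-FLI1 libraries, at 4.34, 3.03 and 3.85 CPM at 6 h, and at 6.85, 6.11 and 5.86 CPM at 24 h. No treated library reached an untreated one. MITF fell by 2.43 ± 0.13 on the log2 scale at 6 h, 5.38-fold (adjusted p = 1.53e-13), and by 1.69 ± 0.12 at 24 h, 3.22-fold (adjusted p = 7.42e-11). At 6 h, 2.35% of all genes tested fell at least as far.

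TFE3 (ENSG00000068323, chrX:49028726-49043486, minus strand) was at 161.6, 155.5 and 164 CPM untreated, at 272.8, 276.4 and 256.9 CPM at 6 h and at 164.1, 174.2 and 150.6 CPM at 24 h. The 6 h libraries stood above all others, and the 24 h libraries overlapped the untreated ones. The log2 fold change was 0.74 ± 0.06 at 6 h (adjusted p = 3.93e-11) and 0.02 ± 0.06 at 24 h (adjusted p = 0.767). In TPM, the 6 h difference lay more in a noncoding form of TFE3 than in its coding transcript.

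TFEB (ENSG00000112561, chr6:41683978-41736259, minus strand) was at 11.2, 13.0 and 11.2 CPM untreated, at 15.7, 18.3 and 15.9 CPM at 6 h and at 9.66, 10.6 and 10.3 CPM at 24 h. On the count scale the 6 h libraries were again the highest, with a log2 fold change of 0.50 ± 0.12 (adjusted p = 0.00107). The direction turned on per-length scales, to -0.17 with transcript-length offsets (adjusted p = 0.608) and to -0.40 with limma on log2(TPM + 1) (adjusted p = 0.177). TFEB is thus given no direction at 6 h. At 24 h its log2 fold change was -0.21 ± 0.12 (adjusted p = 0.168).

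Of the Rag GTPases, RRAGC responded most at 6 h and RRAGD most at 24 h. RRAGC encodes RagC and RRAGD encodes RagD, alternative partners of RagA and RagB in the lysosomal heterodimer. RRAGC (ENSG00000116954, chr1:38838198-38859823, minus strand), whose promoter is shown above, was at 35.1, 29.2 and 30.7 CPM untreated, at 129.7, 122.5 and 118.6 CPM at 6 h and at 73.1, 75.1 and 73.0 CPM at 24 h. The 3 groups did not overlap. The rise was 1.96 ± 0.07 at 6 h, 3.90-fold (adjusted p = 1.61e-16), and 1.22 ± 0.07 at 24 h, 2.33-fold (adjusted p = 1.72e-12). Stretches of 31 bases in the RRAGC coding transcript were shared with no other gene in the tables, but 42.7% occur in other annotated genes.

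RRAGD (ENSG00000025039, chr6:89364636-89412270, minus strand) was at 10.9, 11.4 and 9.51 CPM untreated, at 21.1, 19.0 and 21.2 CPM at 6 h and at 43.2, 42.7 and 37.6 CPM at 24 h. Each later group stood wholly above the earlier one. The rise was 0.94 ± 0.10 at 6 h (adjusted p = 2.02e-08) and 1.95 ± 0.10 at 24 h, 3.87-fold (adjusted p = 1.28e-13). At 24 h, 1.56% of all genes tested rose at least as far.

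Folliculin and FNIP1 rose at both times, and FNIP2 showed little change. FLCN (ENSG00000154803, chr17:17212212-17237188, minus strand) encodes folliculin, the GTPase-activating protein for RagC and RagD. It was at 40.4, 45.2 and 49.2 CPM untreated, at 166.4, 154.4 and 143.7 CPM at 6 h and at 86.8, 94.9 and 88.3 CPM at 24 h, with no overlap between groups. FLCN rose by 1.79 ± 0.08 at 6 h, 3.45-fold (adjusted p = 2.15e-15), and by 1.00 ± 0.08 at 24 h (adjusted p = 1.54e-10). FLCN overlaps MPRIP on the opposite strand over 5468 bases, MPRIP was at 155 to 286 CPM, and strandedness is not given in the sources used here, so reads of the overlap cannot be assigned with certainty. Among stretches of 31 bases in the FLCN transcript with the most coding signal, 35.5% also occur in transcripts of other genes in the tables. The gene sharing most of them, AC055811.2 on the same strand, was at 0 to 2.97 CPM.

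FNIP1 (ENSG00000217128, chr5:131641714-131797063, minus strand) encodes a folliculin partner. It was at 51.9, 43.6 and 50.1 CPM untreated, at 167.1, 159.8 and 158 CPM at 6 h and at 117.1, 118.6 and 127.1 CPM at 24 h. The groups again did not overlap. FNIP1 rose by 1.74 ± 0.07 at 6 h (adjusted p = 6.03e-16) and by 1.32 ± 0.07 at 24 h (adjusted p = 2.12e-13).

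FNIP2 (ENSG00000052795, chr4:158769138-158908049, plus strand), the paralog of FNIP1, was at 30.1, 31.9 and 27.5 CPM untreated, at 34.6, 37.1 and 34.8 CPM at 6 h and at 32.9, 30.0 and 27.9 CPM at 24 h. The 6 h difference of 0.25 ± 0.09 was called (adjusted p = 0.0147), and the 24 h difference of 0.02 ± 0.09 was not (adjusted p = 0.858). The 6 h call was lost without EWS-FLI1 replicate 3 (0.18, adjusted p = 0.118) or without 6 h replicate 2 (0.215, adjusted p = 0.0647). With all libraries it was also lost with upper-quartile factors (0.186, adjusted p = 0.0633), no scaling factors (0.006, adjusted p = 0.958) and length offsets (0.214, adjusted p = 0.27), and its sign turned with limma on log2(TPM + 1), to -0.09.

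The 2 autophagy genes moved in opposite directions. ULK1 (ENSG00000177169, chr12:131894651-131923167, plus strand) was at 49.4, 47.4 and 52.8 CPM untreated, at 13.9, 11.6 and 12.2 CPM at 6 h and at 28.5, 32.8 and 25.4 CPM at 24 h. The 24 h libraries lay between the others without overlap. ULK1 fell by 1.99 ± 0.09 at 6 h, 3.96-fold (adjusted p = 8.41e-15), and by 0.78 ± 0.08 at 24 h (adjusted p = 4.31e-08).

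SQSTM1 (ENSG00000161011, chr5:179806398-179838078, plus strand) was at 231.4, 243.3 and 244.4 CPM untreated, at 948.8, 932.9 and 901.6 CPM at 6 h and at 547.7, 553.3 and 491.4 CPM at 24 h. Again no library overlapped another group. The rise was 1.95 ± 0.06 at 6 h, 3.87-fold (adjusted p = 4.99e-18), and 1.15 ± 0.06 at 24 h (adjusted p = 1.09e-13). Among stretches of 31 bases in the SQSTM1 transcript with the most coding signal, 51.7% also occur in transcripts of other genes in the tables. The gene sharing most of them, MRNIP on the opposite strand, was at 9.85 to 18.6 CPM. SQSTM1 also overlaps MGAT4B on the opposite strand over 555 bases, and MGAT4B was at 53.9 to 122.3 CPM. As for FLCN, reads of these overlaps cannot be assigned with certainty.

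Between 6 h and 24 h, all 10 genes were called, 3 higher and 7 lower at 24 h, where 62.9% of genes were called (32.6% higher and 30.3% lower). RRAGD, MITF and ULK1 were higher at 24 h than at 6 h, with log2 differences of 1.01 ± 0.09, 0.74 ± 0.14 and 1.20 ± 0.09. RRAGC, FLCN, SQSTM1 and TFE3 were lower, by -0.75 ± 0.07, -0.78 ± 0.07, -0.81 ± 0.06 and -0.72 ± 0.06. In edgeR's quasi-likelihood test, these 7 had an adjusted p between 1.72e-11 (SQSTM1) and 8.27e-05 (MITF). RRAGD was farther from its untreated level at 24 h than at 6 h, and the other 6 were nearer to theirs. FNIP1 fell by 0.42 ± 0.07. Its coding transcripts were at 24.4 ± 0.946 TPM at 6 h and 23.5 ± 1.72 TPM at 24 h. A FNIP1 transcript not annotated as coding was at 10.9 ± 0.884 and 6.47 ± 0.499 TPM. The MITF difference was 0.06 with transcript-length offsets (adjusted p = 0.812) and 0.24 with limma on log2(TPM + 1) (adjusted p = 0.238), and that of TFEB (-0.71 ± 0.12) turned to 0.16. The FNIP2 difference (-0.23 ± 0.09) was not called without 6 h replicate 2 or without 24 h replicate 3 (-0.20 and -0.17), nor with upper-quartile factors, no filter or limma (-0.126, -0.221 and -0.188), and with no scaling factors it turned to 0.03.

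**Figure D2:**
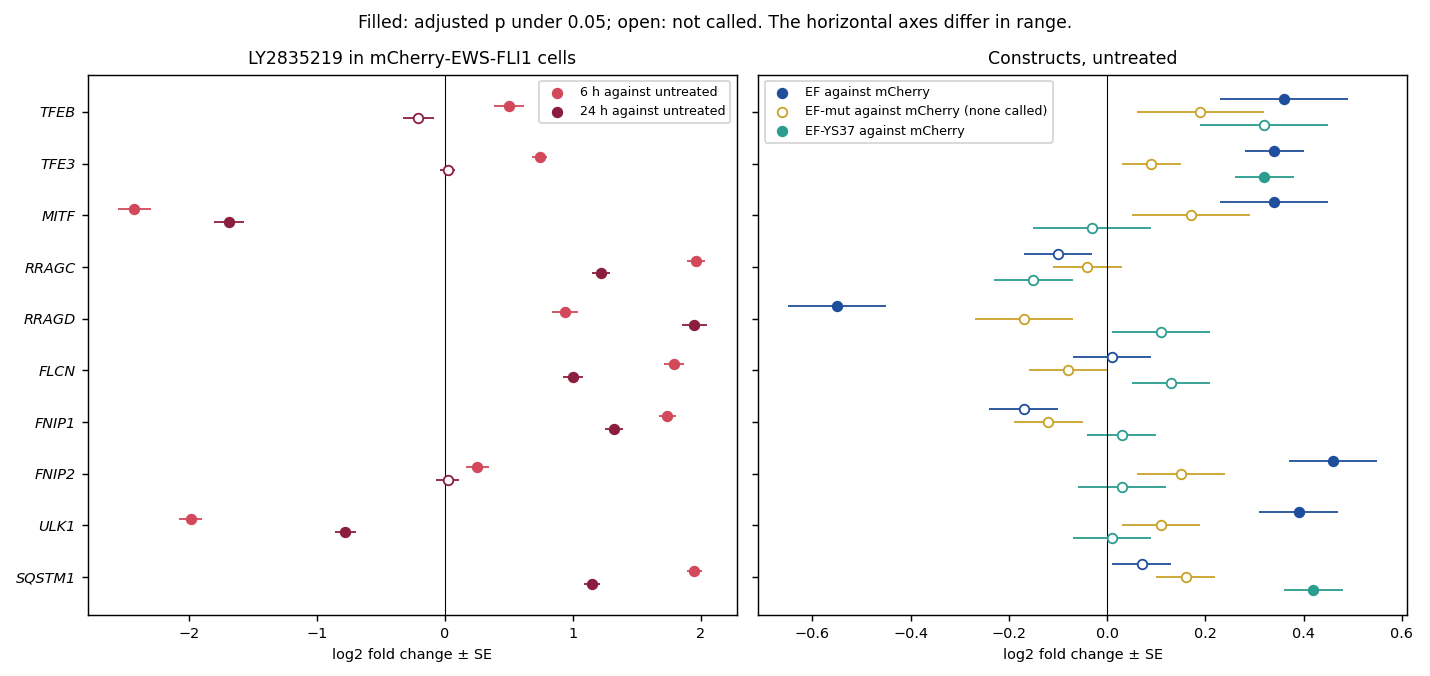
Log2 fold change (horizontal axis) with its standard error for each gene, under LY2835219 (left) and for untreated constructs against mCherry (right, on a narrower axis; EF is mCherry-EWS-FLI1). Filled points were called and open points were not; MITF and ULK1 lie left of 0 at both times of treatment, and the differences of the constructs from mCherry lie between -0.55 and 0.46.

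Between untreated constructs, log2 differences of the 10 genes lay between -0.65 and 0.46. EWS-FLI1 against mCherry called 6 of the 10 genes, 5 higher and 1 lower, where 21.1% of all genes were called (11.1% higher and 9.95% lower). RRAGD was at 14.2, 16.5 and 15.9 CPM in mCherry libraries, at 18.1, 15.6 and 16.4 CPM with EWS(YS37)-FLI1, at 13.9, 14.1 and 13.5 CPM with EWS-FLI1mut and, as given above, at 9.51 to 11.4 CPM with EWS-FLI1. The EWS-FLI1 libraries were the lowest, and the RRAGD difference from mCherry was -0.55 ± 0.10 (adjusted p = 0.000436). TFE3, FNIP2 and ULK1 rose over mCherry by 0.34 ± 0.06, 0.46 ± 0.09 and 0.39 ± 0.08 (adjusted p from 0.000107 to 0.00131). The rises of TFEB (0.36 ± 0.13, adjusted p = 0.0452) and MITF (0.34 ± 0.11, adjusted p = 0.0381) were close to the threshold, and leaving out most single libraries ended the call. TFEB was not called without EWS-FLI1 replicate 1 or 2 or without any 1 of the mCherry libraries (0.300 to 0.395), and MITF was not called without EWS-FLI1 replicate 1 or any 1 of the mCherry libraries (0.257 to 0.373). Both also lost the call with all libraries in, under upper-quartile factors, no scaling factors, no filter, length offsets and limma. The ULK1 call was lost with length offsets (0.425, adjusted p = 0.0983) and limma on log2(TPM + 1) (0.413, adjusted p = 0.0998), and the FNIP2 call with limma (0.513, adjusted p = 0.0546). Limma called 2 of the 10 genes, TFE3 and RRAGD.

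EWS-FLI1mut against mCherry called 0 of the 10 genes with edgeR, where 7.15% of genes were called (3.53% higher and 3.62% lower). Of the 10, 1 gene, SQSTM1, had an unadjusted p under 0.05, as did 20.5% of all genes tested. DESeq2 called 1, also SQSTM1 (0.16, adjusted p = 0.0446). EWS(YS37)-FLI1 against mCherry called 2 of 10, both higher, where 21.7% of genes were called (11.5% higher and 10.2% lower). These were TFE3 (0.32 ± 0.06, adjusted p = 0.000175) and SQSTM1, at 320.9, 281.3 and 311.2 CPM against 221.5, 219.4 and 242.6 CPM (0.42 ± 0.06, adjusted p = 9.55e-06). TFEB, at 0.32 ± 0.13 and not called (adjusted p = 0.0703), was called without EWS(YS37)-FLI1 replicate 2 (0.42, adjusted p = 0.027).

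Set directly against the mut construct, EWS-FLI1 cells differed in 4 of 10 genes, where 16.3% of genes were called (8.78% higher and 7.51% lower). TFE3 (0.26 ± 0.06), FNIP2 (0.31 ± 0.09) and ULK1 (0.28 ± 0.08) were higher with EWS-FLI1, and RRAGD (-0.38 ± 0.10) was lower. RRAGD and ULK1 were not called without EWS-FLI1 replicate 3 (-0.29 and 0.26), ULK1 not without EWS-FLI1mut replicate 2 (0.25), and FNIP2 not without EWS-FLI1 replicate 1 or 2 or EWS-FLI1mut replicate 1 or 3 (0.28 to 0.31). With length offsets and with limma, neither FNIP2 (adjusted p = 0.152 and 0.274) nor ULK1 (adjusted p = 0.143 and 0.259) was called, and MITF was called with offsets (0.656, adjusted p = 0.0269). Between EWS-FLI1 and EWS(YS37)-FLI1 cells, 6 of 10 genes differed, where 31.1% of genes were called (14.8% higher and 16.3% lower). MITF (0.37 ± 0.11), FNIP2 (0.42 ± 0.09) and ULK1 (0.39 ± 0.08) were higher with EWS-FLI1, and RRAGD (-0.65 ± 0.10), SQSTM1 (-0.34 ± 0.06) and FNIP1 (-0.20 ± 0.07) were lower. FNIP1 was not called without EWS-FLI1 replicate 2 or 3 or EWS(YS37)-FLI1 replicate 1 or 3 (-0.12 to -0.21), and MITF not without EWS-FLI1 replicate 1 (0.285) or EWS(YS37)-FLI1 replicate 3 (0.291). The SQSTM1 call was lost with limma (-0.197, adjusted p = 0.0835), and that of FNIP1 with no scaling factors, length offsets, limma and a fit of the 2 groups alone (-0.142 to -0.209). FLI1 RNA itself differed between these lines, at 642 ± 19.9 CPM in EWS-FLI1mut cells and 1019 ± 44.0 CPM in EWS(YS37)-FLI1 cells beside the 247 CPM given above, and its part in these differences was not tested. FLCN and RRAGC were called in none of the 5 comparisons of untreated constructs.

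Compared per length, SQSTM1 was the most abundant of the 10 genes in untreated EWS-FLI1 cells, at 165 ± 5.00 TPM, followed by TFE3 at 75.1 ± 2.46. FLCN followed at 23.4 ± 2.33 TPM. RRAGC (17.3 ± 1.87), ULK1 (16.9 ± 2.24), MITF (16.7 ± 0.539), FNIP1 (13.5 ± 0.369) and TFEB (11.7 ± 3.91) came next, ahead of FNIP2 (9.49 ± 0.459). From RRAGC to FNIP2, neighbours in this order overlapped within their SDs, apart from MITF and FNIP1. RRAGD was lowest, at 6.31 ± 0.520 TPM. At 6 h the TPM of SQSTM1 was 552 ± 32.4, that of RRAGC 51.9 ± 2.90, and those of MITF and ULK1 3.80 ± 0.333 and 3.10 ± 0.602. TFE3 was the most abundant of the 3 factors in all 6 groups, at 56.6 ± 1.99 TPM or more, and neither TFEB nor MITF averaged over 16.7 TPM.

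Transcript types within a gene differed between groups as well. Transcripts of MITF annotated as protein coding summed to 11.7, 12.1 and 7.29 TPM in untreated EWS-FLI1 libraries, to 1.74, 0.885 and 0.783 TPM at 6 h and to 2.82, 1.74 and 1.91 TPM at 24 h. Other MITF transcripts averaged 6.37 ± 2.48, 2.66 ± 0.227 and 2.58 ± 0.620 TPM, so the coding share was 61.8 ± 15.3% untreated, 29.3 ± 10.9% at 6 h and 45.6 ± 4.87% at 24 h. MITF has alternative promoters, the last of which gives the form of melanocytes. Transcripts starting at the last annotated start region (position 69936587 to 69936829) were at 0.469 TPM or less in every library, and the first region (from position 69739435) held 11.1 ± 2.08 TPM untreated and 3.16 ± 0.488 TPM at 6 h. Melanocyte markers were near 0 in all groups, with 8 genes summing to 3.45 to 10.0 TPM.

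For FLCN, transcripts of other types took a larger share under treatment. Its coding transcripts went from 17.2 ± 1.12 to 41.0 ± 3.09 TPM at 6 h and 30.1 ± 2.13 at 24 h, while the others went from 6.18 ± 1.32 to 40.2 ± 12.1 and 29.6 ± 4.51 TPM. The coding share was 73.8 ± 3.37% untreated, 51.2 ± 7.57% at 6 h and 50.5 ± 4.95% at 24 h. It was 58.6 ± 4.66% in mCherry cells. The leading other forms, FLCN-208, FLCN-209 and FLCN-210, are annotated as retained introns. TFE3 has 1 coding transcript in the tables, at 48.7 ± 1.28 TPM untreated, 55.1 ± 1.52 at 6 h and 44.9 ± 2.27 at 24 h. A TFE3 transcript annotated for nonsense-mediated decay was at 17.7 ± 2.46, 31.8 ± 2.39 and 18.7 ± 2.83 TPM, so the coding share of TFE3 was 64.9 ± 3.24% untreated and 58.3 ± 2.12% at 6 h. For RRAGD the coding transcripts were the smaller part, at 2.46 ± 0.342 TPM untreated, 3.55 ± 0.191 at 6 h and 8.48 ± 0.491 at 24 h. A processed transcript of RRAGD, not annotated as coding, was at 3.85 ± 0.503, 6.32 ± 0.959 and 17.3 ± 3.79 TPM. In mCherry cells the coding transcripts of RRAGD were at 3.18 ± 0.283 TPM and the processed transcript at 7.87 ± 0.493 TPM. For ULK1 and SQSTM1 the coding share moved little, from 69.9 ± 7.08% to 74.3 ± 14.0% and from 84.6 ± 0.990% to 82.3 ± 1.31% at 6 h. Kallisto divides reads between overlapping transcripts, so these shares are estimates and were not tested.

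**Figure D3:**
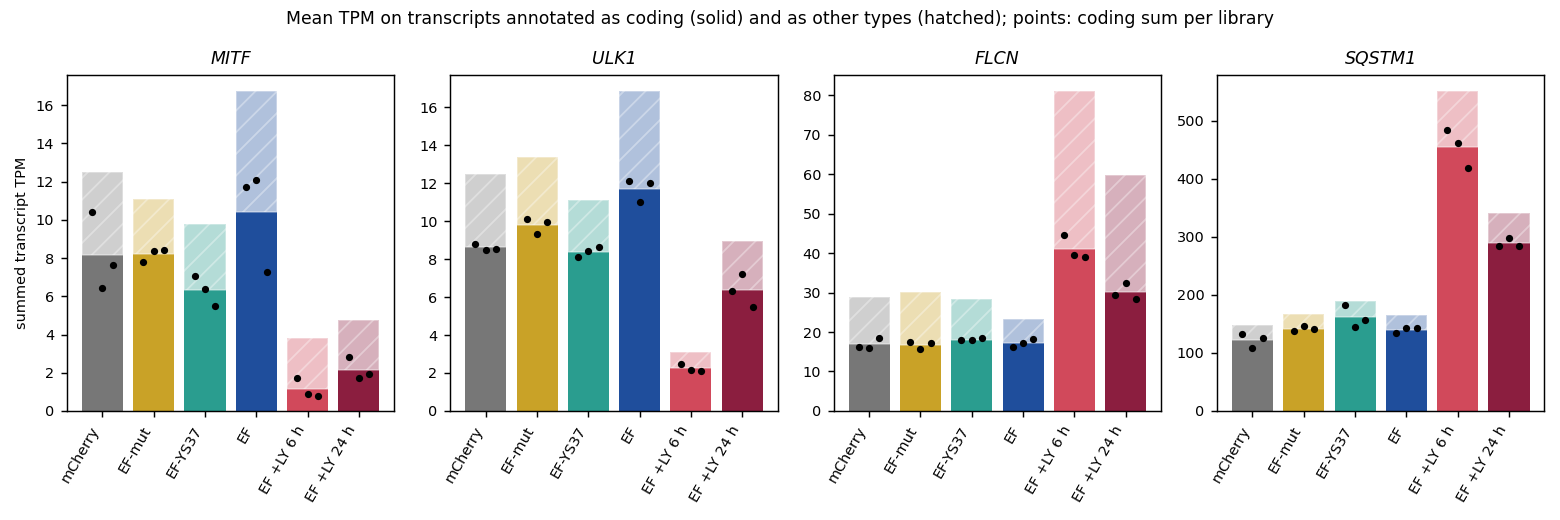
Mean TPM in each group of 3 libraries on transcripts annotated as coding (solid bars) and as other types (hatched, stacked), with the coding sum of each library as points; the vertical axes start at 0 and differ between genes, and EF is mCherry-EWS-FLI1. The coding part of MITF is 10.4 TPM untreated and 1.14 TPM at 6 h, and the hatched part of FLCN is 6.18 and 40.2 TPM.

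Over the 18 libraries, the protein-coding genes with the profiles most like each of the 10 were found by Pearson correlation of log2 CPM, a description of libraries that share treatment. RRAGC was most like PRKAB2, a subunit of the energy sensor AMPK (r = 0.991), and FNIP1 was most like RRAGC (r = 0.984). MITF was most like ATG4D, a protease that processes ATG8 proteins (r = 0.987), and HEXIM1, an inhibitor of the elongation kinase P-TEFb (r = 0.983). FLCN was most like PI4K2A, a lipid kinase (r = 0.990), SQSTM1 like SEC61A1, a channel subunit of the endoplasmic reticulum (r = 0.989), and ULK1 like WFS1, wolframin (r = 0.986). TFE3 was most like MICAL2 (r = 0.986), RRAGD like EIF4B, a translation factor (r = 0.974), TFEB like SH3TC1 (r = 0.946) and FNIP2 like YWHAB, a 14-3-3 protein (r = 0.939). Among the 10 themselves, RRAGC, FLCN, FNIP1 and SQSTM1 had r of 0.97 to 0.99 with each other, and MITF had r of -0.97 to -0.98 with these 4.

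Genes reported as MiT/TFE targets of the lysosome were mostly higher under treatment. Of 24, 20 rose and 2 fell at 6 h (median 0.55), and 22 rose and 0 fell at 24 h (median 0.83). Over all genes tested, 31.6% rose and 33.3% fell at 6 h (median -0.02), and 23.3% rose and 24.6% fell at 24 h (median 0.03). At 6 h the largest changes were in VPS18, a subunit of the vacuolar tethering complexes (1.52 ± 0.09), NPC1, which exports cholesterol from lysosomes (1.25 ± 0.09), and the V-ATPase subunit ATP6V0D1 (1.16 ± 0.07). At 24 h they were in GPNMB, a glycoprotein of lysosomes and melanosomes (15.8 to 125.9 CPM, 2.99 ± 0.11), the sialidase NEU1 (1.91 ± 0.19) and the sulfamidase SGSH (1.46 ± 0.13). Osteoclast and macrophage markers moved too: 9 genes summed to 6.47 to 9.27 TPM in untreated EWS-FLI1 libraries, 13.9 to 19.2 at 6 h and 24.4 to 28.5 at 24 h. CD68, a lysosomal membrane protein, made up most of that sum at 24 h (17.1 TPM), OCSTAMP was listed at 0 in all groups, and PTPRC, SPI1 and CD14 averaged under 1 TPM in every group. Epithelial markers moved as well: 7 genes summed to 819 to 865 TPM untreated, 728 to 752 at 6 h and 403 to 429 at 24 h. In the test on counts, 7 of 7 fell at 24 h (median -0.75), and 2 rose and 0 fell at 6 h. The TPM sum and the count-based calls thus differed in direction at 6 h. The part of either marker list in the results was not tested.

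Among partners of the Rag GTPases, 8 of 10 genes rose and 2 fell at 6 h, and 7 rose and 0 fell at 24 h (medians 0.37 and 0.31). LAMTOR3, a Ragulator scaffold subunit, rose by 1.53 ± 0.09 and then 0.83 ± 0.09, RRAGB by 0.66 ± 0.13 and then 1.05 ± 0.13, and BORCS6 fell by 1.10 ± 0.21 at 6 h. Amino acid sensors, GATOR and KICSTOR genes had 6 of 17 higher and 7 lower at 6 h and 7 and 3 at 24 h (medians 0.03 and 0.11). SESN2, the leucine sensor sestrin 2, rose at 6 h (to 60.2 CPM, 2.01 ± 0.09), and CASTOR2 fell (6.64 to 1.30 CPM, -2.34 ± 0.21). The mTORC1, TSC and AMPK genes had 6 of 16 higher and 5 lower at 6 h, and 7 and 3 at 24 h (medians 0.09 and 0.20). DEPTOR, an mTOR inhibitor, fell from 3.02 to 0.186 CPM (-3.97 ± 0.51), PRKAB2 rose by 1.64 ± 0.06 and TSC1, an inhibitor of mTORC1 signalling, by 0.96 ± 0.07.

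At 6 h, 31.6% of all genes tested rose and 33.3% fell, and at 24 h 23.3% rose and 24.6% fell. The ULK complex and conjugation lists stood near these shares at 6 h. So did the amino acid sensor list and the list of mTORC1, TSC and AMPK genes. Of the ULK complex and initiation genes, 6 of 16 rose and 6 fell at 6 h, and 4 rose and 6 fell at 24 h (medians -0.13 and -0.07). ULK2, the paralog of ULK1, fell by 1.34 ± 0.21 at 6 h, WIPI2, a phosphoinositide-binding protein of the forming autophagosome, fell by 1.16 ± 0.06, and ATG101 rose by 1.06 ± 0.08. Of 14 tested genes of conjugation and the ATG8 proteins, 6 rose and 5 fell at 6 h and 5 and 3 at 24 h (medians 0.19 and 0.04). MAP1LC3B, which encodes LC3B, rose by 1.48 ± 0.07, whereas its relative GABARAPL1 fell by 1.88 ± 0.11 and ATG4D by 1.48 ± 0.11. Receptors and the KEAP1-NRF2 axis, in which SQSTM1 takes part, had 8 of 12 higher and 3 lower at 6 h but 4 and 7 at 24 h (medians 0.86 and -0.26). The haem oxygenase HMOX1 rose at 6 h (26.9 to 159.5 CPM, 2.57 ± 0.13) and the receptor NBR1 fell (-1.53 ± 0.07).

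Genes of nuclear export, phosphatase and partners of the factors had 7 of 13 higher and 5 lower at 6 h, and 1 and 5 at 24 h (medians 0.18 and -0.05). MCOLN1, the lysosomal calcium channel, rose at both times (0.83 ± 0.12 and 0.92 ± 0.12), and the 14-3-3 gene YWHAH fell at 24 h (-1.09 ± 0.05). Of 6 other E-box factor genes, 2 rose and 2 fell at 6 h, with MXI1 at -1.12 ± 0.10 and MYC at 0.90 ± 0.07, and 1 rose and 1 fell at 24 h. The counts of this E-box list at 6 h were near the shares over all genes tested (31.6% higher and 33.3% lower). At 24 h those shares were 23.3% and 24.6%.

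**Figure D4:**
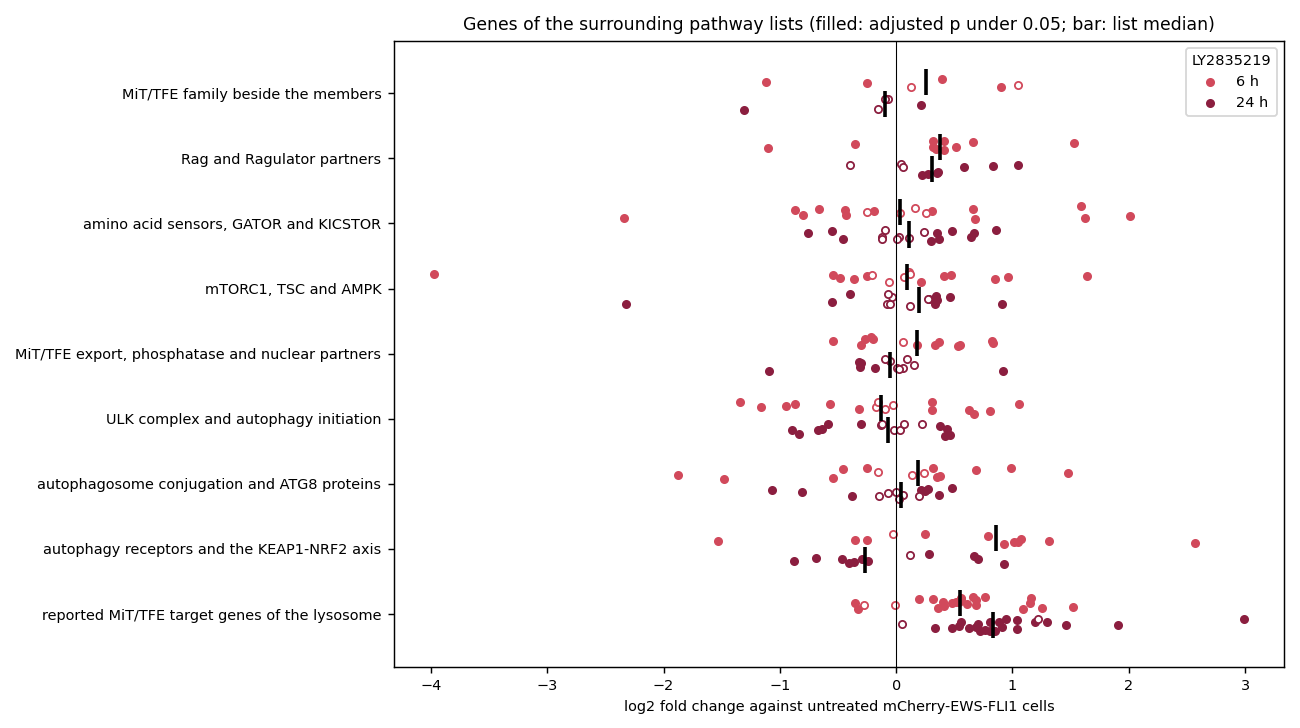
Log2 fold change against untreated mCherry-EWS-FLI1 cells (horizontal axis) for each gene of the surrounding lists at 6 h and 24 h, filled where called, with black bars at list medians. The list of lysosomal targets lies mostly right of 0 (medians 0.55 and 0.83), and most other lists spread to both sides.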

How the data were processed

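RNA of 18 libraries in 6 groups of 3 was measured by polyA sequencing. The submitters mention 2 preparation kits, and the kit behind each library is unknown. A difference in kit between groups could therefore not be tested. Kallisto 0.46 and CASAVA are named in the submitters' processing notes with hg38; the transcript set and strandedness are not given in the sources used here. The authors deposited estimated counts (expected counts, not normalized), TPM and effective lengths in bases for 188753 transcripts per library, per the file headers. GENCODE 29 gave genes for 169797 transcripts by versionless identifier; 2.59% to 2.74% of counts lay on unmatched transcripts, not used here. The sum of each gene's estimated counts was rounded. edgeR 4.0.16 (R 4.3.3) fitted all 18 libraries once, with TMM factors, filterByExpr and 1 mean per group (16786 genes, 12 residual degrees of freedom), and a quasi-likelihood test was made for 8 comparisons. The procedure was tested on simulated data for 1 comparison, 6 h against untreated, with far fewer changed genes than were called in the data. That simulation therefore does not test the scaling where most genes change. Dividing the size of a log2 fold change by the root of its F statistic gave its standard error. Alternatives were DESeq2 1.42.0, limma 3.58.1 on log2(TPM + 1) for genes of mean TPM at least 0.5, other scaling, no filter, length offsets, a replicate block, a fit of the 2 groups alone and leaving out each library.

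The 10 genes and the lists were chosen with earlier results of these data known. From each list, up to 3 called genes with the largest change in a comparison could be named, or the 2 most abundant where none was called. The 2 most correlated genes of each of the 10 could be named; not all are printed. TMEM55B, a listed Rag and Ragulator partner, was absent under that symbol. After the values were seen it was matched to PIP4P1 through RefSeq synonyms, a lookup applied to every unmatched symbol. Without that lookup, 7 of 9 partners rose and 2 fell at 6 h, and 6 rose and 0 fell at 24 h.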

Additional observations from a re-analysis of the deposited data

Results flagged for a closer look

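In the main analysis, all 10 genes were called different between 6 h and 24 h of LY2835219, by edgeR's quasi-likelihood test of the 24 h against the 6 h libraries. For TFEB, MITF and FNIP2 this depended on the processing. With transcript-length offsets, TFEB turned to 0.158 and MITF was 0.063 and no longer called. FNIP2 turned to 0.03 with no scaling factors. The log2 differences of the main analysis (24 h minus 6 h) were 1.20 for ULK1, 1.01 for RRAGD and 0.74 for MITF, and -0.81 for SQSTM1, -0.78 for FLCN, -0.75 for RRAGC, -0.72 for TFE3, -0.71 for TFEB, -0.42 for FNIP1 and -0.23 for FNIP2. At the same threshold 62.9% of all genes tested differed between the 2 times. Of the 10, RRAGD alone moved further from the untreated level in every 24 h library than in any 6 h library.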

How the results depend on the processing

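Of 1200 log2 fold changes of the 10 genes recomputed under alternatives, 1085 kept direction and side of the threshold, 59 lost the call, 4 gained one and 52 changed sign; of 240 counts of calls, 219 stayed within 1.5 times. The called sign changes are those of TFEB and FNIP2. With transcript-length offsets and with limma on log2(TPM + 1), respectively, TFEB was -0.168 and -0.404 at 6 h and 0.158 and 0.346 at 24 h against 6 h. FNIP2 was -0.086 at 6 h with limma and 0.03 at 24 h against 6 h with no scaling factors. Without scaling factors, the median over all genes tested shifted to -0.27 (6 h) and 0.31 (24 h against 6 h). The cause was not tested.

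All other sign changes were of differences not called in the main analysis. At 24 h against untreated cells, with offsets and limma, TFE3 was -0.005 and -0.072 and FNIP2 -0.23 and -0.274. For EWS-FLI1 against mCherry, FLCN was -0.004 with upper-quartile factors, -0.003 with no scaling, -0.308 with offsets and -0.294 with limma. For EWS-FLI1mut against mCherry, MITF was -0.232 with offsets and -0.141 with limma, which also gave RRAGC 0.044 and FLCN 0.047. For EWS(YS37)-FLI1 against mCherry, ULK1 was -0.017 with upper-quartile factors; ULK1, FNIP1 and FNIP2 were -0.03, -0.007 and -0.004 with no scaling, -0.113, -0.039 and -0.101 with offsets, and -0.139, -0.089 and -0.139 with limma, which gave FLCN -0.027. For EWS-FLI1 against EWS-FLI1mut, FLCN was -0.294 and -0.341 with offsets and limma, and SQSTM1 0.043 with offsets.

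Leaving out each library in turn gave ranges across 0. These were -0.056 to 0.076 (TFE3) and -0.059 to 0.078 (FNIP2) at 24 h against untreated cells, and -0.038 to 0.091 (FLCN) for EWS-FLI1 against mCherry. Against EWS-FLI1mut they were -0.138 to 0.015 (RRAGC) and -0.101 to 0.04 (FNIP1), and against EWS(YS37)-FLI1 -0.048 to 0.107 (TFEB) and -0.021 to 0.127 (RRAGC). For EWS-FLI1mut against mCherry RRAGC ranged from -0.083 to 0.026. For EWS(YS37)-FLI1 against mCherry the ranges were -0.084 to 0.048 (MITF), -0.004 to 0.065 (FNIP1), -0.04 to 0.073 (FNIP2) and -0.028 to 0.033 (ULK1).

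Genes called in all, with offsets and limma, numbered 1701 and 1616 for EWS-FLI1 against mCherry (3536 in the main analysis), 360 and 375 for EWS-FLI1mut (1200), 1961 and 1871 for EWS(YS37)-FLI1 (3645), 1262 and 1160 for EWS-FLI1 against EWS-FLI1mut (2734), and 3000 and 2913 against EWS(YS37)-FLI1 (5223). Of the 10 genes, EWS-FLI1 against mCherry then called 3 and 2 (6), limma called 2 (4) against EWS-FLI1mut, and EWS-FLI1mut against mCherry called 1 with no scaling and 1 with DESeq2 (0). Without single libraries, EWS-FLI1mut against mCherry called 667 to 1012 genes, and EWS-FLI1 against EWS-FLI1mut 2 to 3 of the 10.

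The replicate numbers did not pair the libraries: same-numbered libraries of different groups had a mean correlation of 0.004 (-0.051 to 0.062, 45 pairs), and 8 of 18 were closest to their own number. With a replicate block, TFEB in EWS-FLI1 against mCherry was 0.359 and no longer called (adjusted p = 0.0528); no other call of the 10 genes changed. Depth limits mainly MITF, TFEB and RRAGD, the genes with the lowest CPM.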
